A study of Mus musculus with 12 samples.

Results

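Antigen presentation by major histocompatibility complex (MHC) class II was examined in O1+ oligodendrocytes sorted from mouse brain, through 7 genes. These were Cd74 (the invariant chain), the class II chain genes H2-Aa, H2-Ab1 and H2-Eb1, the peptide-loading genes H2-DMa and H2-DMb1, and Ciita, the coactivator of the group. They were taken by symbol from a table of raw counts of 55376 gene symbols. Levels are given in CPM, counts scaled by the TMM-adjusted size of each library. On the scale of plain library totals, 7 of 7 were among the 17716 genes that reached 1 CPM in at least 4 of the 12 samples. The genes were selected on their counts in these samples, whose differences between genotypes were already known, so their levels and differences are given as a description. No p-value is given for them, and where the number of them called by a test, or without overlap between groups, is given beside the same share over all genes, nothing is read from it in any comparison, since both use the values by which they were chosen.

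The 12 samples were 4 each of WT mice, of Jab1 mutants (Cnp-Cre Jab1fl/fl) and of double mutants (Cnp-Cre Jab1fl/fl p21CIP1-/-), all of the C57BL/6 strain at postnatal day 40. Each sample pooled sorted cells of 2 brains that were O1+ and CD45-, and replicates carry the numbers 1, 3, 5 and 6 in WT, 1 to 4 in Jab1 mutants, and 1, 2, 3 and 5 in double mutants. Jab1, listed as Cops5, is deleted by a Cre recombinase under the promoter of Cnp, a gene active in cells committed to the oligodendrocyte lineage and in Schwann cells. The p21CIP1 (Cdkn1a) allele is deleted in the germline of the double mutants, and mice with p21CIP1 deleted alone were not analysed here. It derives from the 129S6/SvEvTac strain, and Cdkn1a lies on chromosome 17, between 5.02 and 5.22 Mb from the H2 genes described here, so that a flanking stretch of that strain and the loss of p21CIP1 cannot be told apart by this design.

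MHC class II molecules carry peptides of proteins taken up by a cell to its surface, where CD4+ T cells read them. An alpha and a beta chain are assembled with the invariant chain in the endoplasmic reticulum, cathepsins trim the invariant chain in the endosome, and H2-DM exchanges its last fragment for a peptide. In the brain these genes are known from microglia, border-associated macrophages and other antigen-presenting cells, and their shared promoter elements are read by the RFX, CREB and NF-Y factors, on which CIITA docks.

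Of the 7 genes, 4 had a promoter window in the RefSeq table used here (GRCm38.p6), and Cd74, H2-Ab1 and Ciita had none. A window with the letters GNAAC followed after 10 to 45 bases by TGATTGG on the same strand, the core letters of the X and Y boxes of class II promoters, was found for H2-Aa, H2-Eb1 and H2-DMb1, and not in either window of H2-DMa. These letters were chosen after the sequences had been seen. The pair was in 0.962% of 32851 promoter windows of the same length, and TGATTGG alone, on either strand, in 7.82%. H2-Aa and H2-Eb1 are shown here because both boxes lie within 100 bases of the start while the levels of the genes in the same samples were often far apart. The bases shown precede the annotated start, with both boxes in capitals, at chr17:34287824-34287953 on the reverse strand for H2-Aa and chr17:34305737-34305866 on the forward strand for H2-Eb1.
H2-Aa: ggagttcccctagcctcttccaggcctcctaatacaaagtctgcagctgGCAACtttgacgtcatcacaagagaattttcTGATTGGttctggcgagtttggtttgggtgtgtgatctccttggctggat
H2-Eb1: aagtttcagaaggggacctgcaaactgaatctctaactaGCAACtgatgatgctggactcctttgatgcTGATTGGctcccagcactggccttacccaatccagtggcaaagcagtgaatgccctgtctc
The first box began 81 bases before the start of H2-Aa and 91 bases before that of H2-Eb1, and the gap between boxes was 26 and 25 bases. H2-DMb1 had GTAAC at 94 and TGATTGG at 63 bases before its RefSeq start. Of the other class II genes of the locus, H2-Oa, H2-Ob and H2-Eb2 also held the pair, and H2-DMb2 held TGATTGG without it.

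The counts summed to between 61485556 and 153495112 per sample, with a median of 103095817. The level of Cops5 was 107.6 ± 41.99 CPM in WT, 64.4 ± 17.8 CPM in Jab1 mutants (SD, n = 4 in each genotype) and 58.0 ± 19.8 CPM in double mutants, and counts over the whole gene do not single out the deleted exons. Cdkn1a had 43.4 ± 32.8 CPM in WT, 434.0 ± 113.2 CPM in Jab1 mutants and 88.3 ± 18.7 CPM in double mutants, again over the whole gene. Of 10 markers of oligodendrocytes, 10 were detected in every genotype, with a summed level of 47040 to 111200 CPM in WT, 8341 to 34880 CPM in Jab1 mutants and 16420 to 52930 CPM in double mutants. Double-mutant replicate 3 stood apart: 20 markers of microglia summed to 20470 CPM there, as compared with 473.5 to 2268 CPM in the other double mutants, and the levels and fold changes of the class II genes in double mutants are given with and without it.

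Cd74, on chromosome 18 from 60803848 to 60812652 on the forward strand, encodes the invariant chain that chaperones class II dimers and fills their groove. In WT it had 6 counts in replicate 1 and 0 in replicates 3, 5 and 6. In Jab1 mutants it was at 15.8, 4.71, 2.06 and 17.7 CPM in replicates 1 to 4, from 150 to 1390 counts. In double mutants it was at 4.74, 7.93, 133.1 and 22.1 CPM in replicates 1, 2, 3 and 5. Every mutant sample of either genotype was thus above every WT sample, and Cd74 had more than 3 counts, the level taken here as the floor of detection, in all 8 mutant samples and in 1 WT sample. The mean was 0.0142 ± 0.0284 CPM (SD, n = 4) in WT, 10.1 ± 7.83 CPM in Jab1 mutants and 41.98 ± 61.2 CPM in double mutants, which was 11.6 ± 9.26 CPM (n = 3) without replicate 3.

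The class II A molecule is a dimer of the alpha chain of H2-Aa and the beta chain of H2-Ab1. H2-Aa, on chromosome 17 from 34282744 to 34287823 on the reverse strand, had 0, 0, 4 and 42 counts in WT replicates 1, 3, 5 and 6. It was at 10.1, 0.0333, 5.23 and 6.03 CPM in the 4 Jab1 mutants, and at 0, 0, 14.3 and 1.56 CPM in the double mutants. Jab1-mutant replicate 2, with 4 counts, and double-mutant replicates 1 and 2, with 0, lay within the WT range, and the rest of the mutants lay above it. Without replicate 3, the mean of the double mutants changed from 3.96 ± 6.92 CPM (SD, n = 4) to 0.519 ± 0.899 CPM (n = 3).

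H2-Ab1, on chromosome 17 from 34257689 to 34269419 on the forward strand, had 2, 0, 142 and 0 counts in the WT samples. It was at 17.5, 8.50, 0.385 and 18.4 CPM in Jab1 mutants, and at 0, 7.73, 54.9 and 13 CPM in double mutants. Jab1-mutant replicate 3, with 28 counts, and double-mutant replicate 1, with 0, lay below WT replicate 5, which was at 1.49 CPM, so the groups overlapped. The mean of the double mutants was 18.9 ± 24.6 CPM (SD, n = 4), and 6.91 ± 6.54 CPM (n = 3) without replicate 3. The alpha and beta chain genes were not detected in step. These are counts of amplified reads without molecular identifiers, so how many molecules they stand for is not known. Jab1-mutant replicate 2 had 1020 counts of H2-Ab1 and 4 of H2-Aa, and double-mutant replicate 2 had 948 and 0. Jab1-mutant replicate 3 was the reverse, with 28 counts of H2-Ab1 and 381 of H2-Aa. As a share of the sum of both genes in CPM, H2-Aa was 36.6%, 0.391%, 93.2% and 24.6% in the Jab1 mutants.

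H2-Eb1, on chromosome 17 from 34305867 to 34316674 on the forward strand, encodes the beta chain of the E molecule. C57BL/6 mice lack a functional gene for its partner, whose remnant is listed as the pseudogene H2-Ea-ps. H2-Eb1 was the class II chain gene with the most even level in WT, at 0.681, 0.992, 0.242 and 1.18 CPM. Jab1 mutants had 3.73, 0.666, 1.35 and 0.102 CPM, and double mutants 0.216, 0.0815, 23.7 and 0.0205 CPM. Of the double mutants, replicate 3 was above all WT samples and replicates 1, 2 and 5 were below all of them, so the mean of 5.99 ± 11.8 CPM (SD, n = 4), which exceeded the 0.773 ± 0.409 CPM of WT, became 0.106 ± 0.0999 CPM (n = 3) without replicate 3. H2-Ea-ps was at 0.0202 to 0.800 CPM in WT, 0.04997 to 0.165 CPM in Jab1 mutants and 0.0566 to 0.171 CPM in double mutants.

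H2-DMa and H2-DMb1 encode the chains of H2-DM, the editor that exchanges the invariant chain fragment for peptide. H2-DMa, on chromosome 17 from 34119541 to 34139101 on the forward strand, was detected in all 12 samples. It was at 4.15, 1.57, 2.97 and 3.83 CPM in WT, 16.2, 3.90, 10.2 and 31.96 CPM in Jab1 mutants, and 0.281, 8.24, 122.7 and 21.1 CPM in double mutants. Jab1-mutant replicate 2 fell among the WT samples and double-mutant replicate 1 below them, while the other mutants were above every WT sample. The mean of the double mutants was 38.1 ± 57.1 CPM (SD, n = 4), and 9.87 ± 10.5 CPM (n = 3) without replicate 3.

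H2-DMb1, on chromosome 17 from 34153072 to 34160230 on the forward strand, was at 2.15, 0.601, 0 and 1.72 CPM in WT and at the more even levels of 5.27, 6.02, 3.70 and 5.94 CPM in Jab1 mutants, with no overlap. In double mutants it was at 0, 4.56, 44.9 and 20.2 CPM, and replicate 1, with 0 counts, was at the level of WT replicate 5. Their mean was 17.4 ± 20.2 CPM (SD, n = 4), and 8.25 ± 10.6 CPM (n = 3) without replicate 3. H2-DMb1 shares 22.7% of its 50-base words with the neighboring H2-DMb2, so its counts are uncertain. H2-DMb2 itself was at most at 3 counts in WT, from 9 to 212 counts in Jab1 mutants, and from 0 to 630 counts in double mutants.

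Ciita, on chromosome 16 from 10480059 to 10528418 on the forward strand, encodes the coactivator that class II transcription requires. It was at 0.161, 7.15, 0.642 and 3.09 CPM in WT, 0.493, 0.117, 0.0412 and 1.87 CPM in Jab1 mutants, and 5.27, 1.28, 9.08 and 0.0307 CPM in double mutants. Its highest WT sample, replicate 3 with 1059 counts, had 0 counts of Cd74, H2-Aa and H2-Ab1. Double-mutant replicate 5 and Jab1-mutant replicate 3, each with 3 counts of Ciita, had 2160 and 150 counts of Cd74. The order of the samples by Ciita was therefore not that of the other genes, and its groups overlapped in all 3 comparisons. Its mean in double mutants was 3.92 ± 4.11 CPM (SD, n = 4), and 2.19 ± 2.73 CPM (n = 3) without replicate 3. Ciita shares 111 of its 8225 exon bases with Dexi on the other strand, a gene at 49.7 ± 12 CPM in WT (SD, n = 4), and whether reads were counted by strand is not stated.

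**Figure D1:**
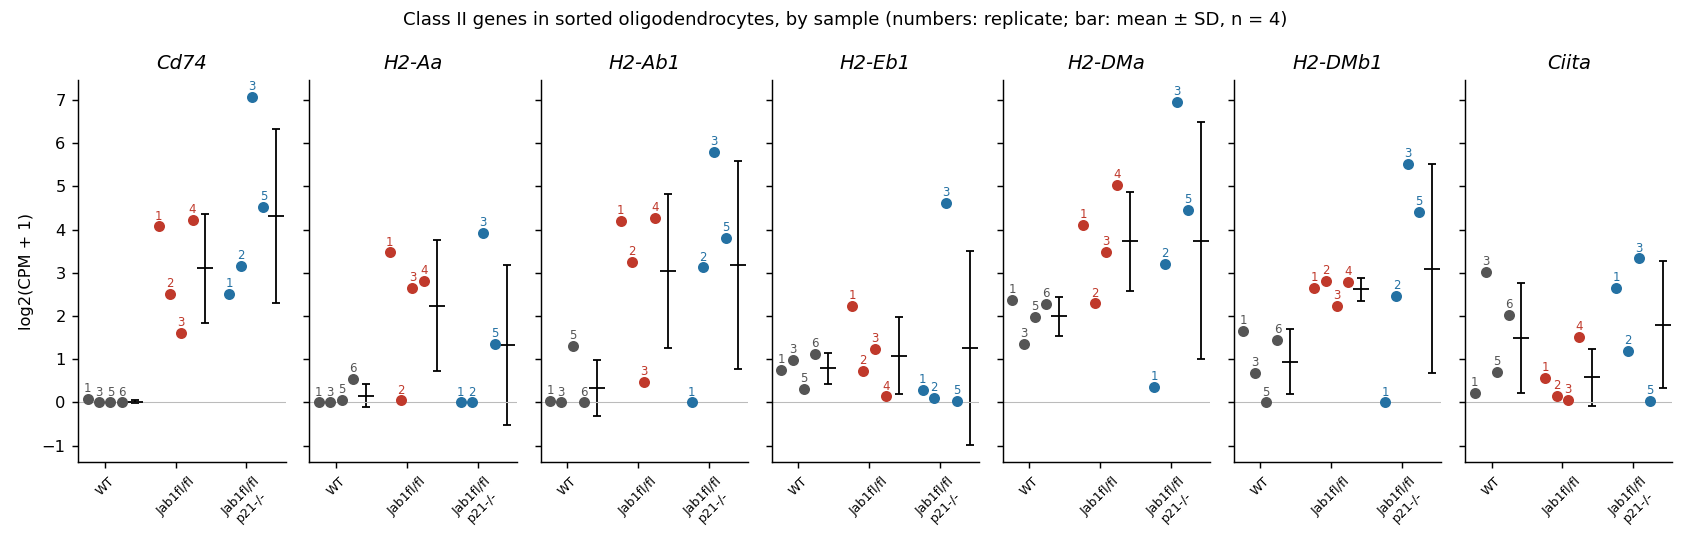
Level of each of the 7 genes as log2(CPM + 1) on the y axis, with 1 point per sample, numbered by replicate, for WT (gray), Jab1 mutants (red) and double mutants (blue), and with a bar for the mean ± SD of 4 samples. Cd74 is the gene whose mutant samples all lie above all WT samples in both genotypes, double-mutant replicate 3 is the highest sample of every gene, and Ciita has high and low samples in each genotype.

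Per kilobase of exon, which allows levels of different genes to be compared, the highest of the 7 genes in WT was H2-DMa, at 1.17 ± 0.433 CPM per kb (SD, n = 4), followed by H2-DMb1 at 0.796 ± 0.705, H2-Eb1 at 0.463 ± 0.245, Ciita at 0.335 ± 0.388, H2-Ab1 at 0.312 ± 0.614, H2-Aa at 0.113 ± 0.201 and Cd74 at 0.0100 ± 0.0200 CPM per kb. Neighbors in this order differed by less than the larger SD of each pair. In Jab1 mutants the order began with H2-Ab1 at 9.24 ± 7.0 CPM per kb and Cd74 at 7.11 ± 5.53 CPM per kb, ahead of H2-DMa at 5.83 ± 4.51 and H2-Aa at 4.74 ± 3.66. H2-DMb1 at 3.73 ± 0.768, H2-Eb1 at 0.876 ± 0.957 and Ciita at 0.0766 ± 0.103 CPM per kb came last. Only the step from H2-DMb1 to H2-Eb1 exceeded the spread of both neighbors. In double mutants Cd74 came first at 29.6 ± 43.2 CPM per kb and Ciita last at 0.476 ± 0.499 CPM per kb, with every SD above its mean. Without replicate 3 Cd74 was again first, at 8.19 ± 6.54 CPM per kb (SD, n = 3), and H2-Eb1 was last, at 0.0635 ± 0.0599, with H2-DMb1 at 5.88 ± 7.55, H2-Ab1 at 5.70 ± 5.39, H2-DMa at 3.70 ± 3.94, H2-Aa at 0.46 ± 0.797 and Ciita at 0.267 ± 0.332 CPM per kb between them. Cd74 was thus the lowest of the 7 genes in WT and the first or the next to first in both mutant genotypes.

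Many of these values were near zero in libraries of high depth. Of the 84 values of the 7 genes, 16 (19.0%) were at or under 3 counts, as compared with 4.22% of the values of all genes tested and 3.23% for the 6221 genes tested in the same range of mean level. A count of 3 corresponded to between 0.0195 and 0.0488 CPM across the 12 samples, and such limits cover counting error only, since the reads carry no molecular identifiers. From 4 to 5 of the 7 genes were above the floor in WT samples, 6 to 7 in Jab1 mutants and 4 to 7 in double mutants. Cd74 and H2-Aa reached 1 CPM in 0 WT samples and so passed the filter on low counts through the mutants alone.

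The first comparison, of Cnp-Cre Jab1fl/fl with WT, asks how the loss of JAB1 in the oligodendrocyte lineage changes the RNA of O1+ cells. The 6 genes other than Ciita summed to 48.9 ± 29.8 CPM in Jab1 mutants (SD, n = 4), from 22.9 to 80.2 CPM, and to 5.54 ± 1.95 CPM in WT, from 3.16 to 7.20 CPM, with no overlap. The fitted log2 fold change was 9.47 (SE 1.60) for Cd74, 5.50 (SE 2.0) for H2-Aa and 5.03 (SE 1.92) for H2-Ab1. H2-DMa had a log2 fold change of 2.44 (SE 0.68), H2-DMb1 of 2.33 (SE 1.26) and H2-Eb1 of 1.03 (SE 1.16), whereas that of Ciita was -2.0 (SE 1.42). The median was 2.44 over the 7 genes and 0.02 over all genes tested. The value of Cd74 rests on 6 WT counts in all and was 13.01 without WT replicate 1, while that of H2-Aa was 8.68 without WT replicate 6 and that of H2-Ab1 10.68 without WT replicate 5. The value of H2-Eb1 was -0.01 without Jab1-mutant replicate 1, and that of Ciita ran from -3.58 without Jab1-mutant replicate 4 to -0.93 without WT replicate 3. In edgeR's quasi-likelihood test 1 of the 7 genes, Cd74, was called at an adjusted p below 0.05, where 5.19% of all genes were called as higher and 2.46% as lower (7.64% in either direction), and 2 of 7, Cd74 and H2-DMb1, had no overlap between groups, against 8.73% of all genes with every mutant sample above every WT sample.

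In the second comparison, of the double mutants with the same WT samples, the log2 fold change was 11.54 (SE 1.70) for Cd74, 5.04 (SE 2.64) for H2-Aa, 5.76 (SE 2.33) for H2-Ab1, 3.05 (SE 1.80) for H2-Eb1, 3.70 (SE 1.26) for H2-DMa, 4.05 (SE 1.84) for H2-DMb1 and 0.57 (SE 1.39) for Ciita. Without double-mutant replicate 3 these were 9.62, 2.08, 4.25, -2.80, 1.71, 2.94 and -0.25, in the same order, so that H2-Eb1 and Ciita changed sign. The summed level of the 6 genes without Ciita was 5.23, 28.5, 393.5 and 78.0 CPM in replicates 1, 2, 3 and 5, and replicate 1 was within the WT range. Cd74 was again the 1 gene of 7 called, where 0.175% of all genes were called as higher and 0.0169% as lower (0.192% in either direction). When each of the 8 samples was left out in turn Cd74 was called in 1 case, without double-mutant replicate 1, and not without replicate 3. Cd74 was also the 1 of 7 with no overlap, where 4.01% of all genes had every double mutant above every WT sample. Both comparisons share the WT samples and are not independent of each other.

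The third comparison set the double mutants against the Jab1 mutants, which asks what the loss of p21CIP1 adds to that of JAB1. With all samples, the log2 fold change was 2.04 (SE 1.04) for Cd74, -0.46 (SE 2.0) for H2-Aa, 0.74 (SE 1.48) for H2-Ab1, 2.03 (SE 1.87) for H2-Eb1, 1.26 (SE 1.22) for H2-DMa, 1.72 (SE 1.36) for H2-DMb1 and 2.58 (SE 1.61) for Ciita, a median of 1.72. Without double-mutant replicate 3 the median was -0.71. The sign turned for 3 of the 7 genes, with H2-Ab1 at -0.74, H2-Eb1 at -3.80 and H2-DMa at -0.71 on the log2 scale. It did not turn for H2-Aa at -3.38, Cd74 at 0.17, H2-DMb1 at 0.63 and Ciita at 1.74. The groups overlapped for 7 of 7 genes. None of the 7 was called in this comparison by edgeR, DESeq2 or limma-voom, with 0 of the 7 at an unadjusted p below 0.05 in edgeR and 1 in DESeq2, and over all genes tested edgeR called 0.0% (885 had an unadjusted p below 0.05), DESeq2 87 genes and limma-voom 1.

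**Figure D2:**
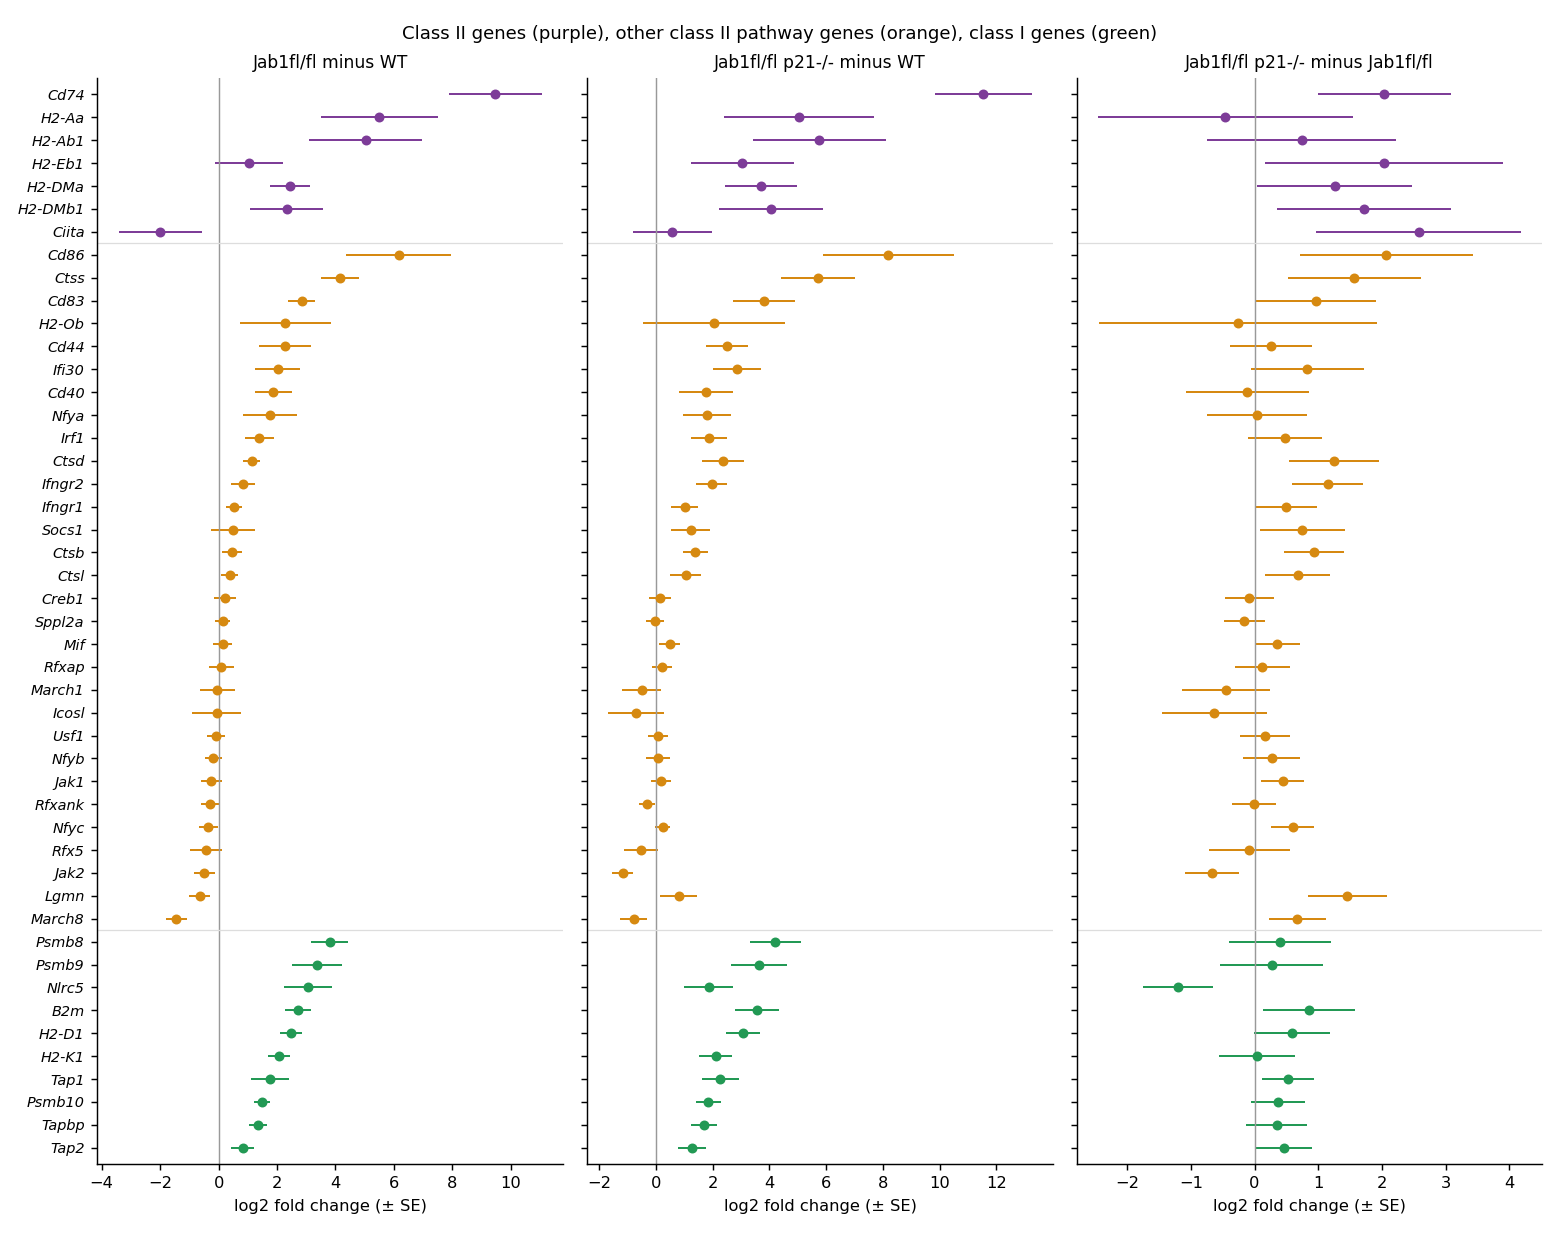
Log2 fold change (x axis, points, with bars of 1 SE) in edgeR for the 7 class II genes (purple), other genes of the class II pathway (orange) and 10 class I genes (green), in each of the 3 comparisons. Against WT, Cd74 has the largest fold change of the genes shown and the 10 class I genes are to the right of 0, whereas the factors that bind class II promoters lie on both sides of 0 and none of them was called.

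The rest of the class II pathway was followed through a list of 38 genes, of which 37 were in the table and 31 were tested. In Jab1 mutants as compared with WT, 4 of 31 were called as higher and 1 as lower, where 5.19% of all genes were called as higher and 2.46% as lower, and the median log2 fold change was 0.38, against 0.02 over all genes. Of 7 genes of endosomal processing, 2 were higher. Ctss, the cathepsin that trims the invariant chain in professional antigen-presenting cells, rose from 20.5 ± 14.1 CPM in WT to 331.3 ± 187.4 CPM in Jab1 mutants (SD, n = 4 each), a log2 fold change of 4.14 (SE 0.65, adjusted p = 0.00491, edgeR). Ctsd, a lysosomal protease, rose from 509.3 ± 38.3 to 1027 ± 189.8 CPM, a log2 fold change of 1.13 (SE 0.28, adjusted p = 0.0321, edgeR). Lgmn, the asparaginyl endopeptidase, had the lowest value of the group (-0.65, SE 0.35, adjusted p = 0.311, edgeR). Ctss was called in all 16 alternative analyses and Ctsd in 7 of them.

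Of 9 listed inducers and transducers of interferon signaling 8 were tested. Their log2 fold changes in Jab1 mutants against WT had a median of 0.5, with 5 above and 3 below 0. The lowest value of this group was that of Jak2 (-0.49, SE 0.36, adjusted p = 0.469, edgeR). Ifng, the cytokine that induces Ciita, was at 0.397 CPM in 1 WT sample and at 0 in the other 11 samples, and was not tested. Of 7 factors that bind class II promoters 0 were called by edgeR, and 0 had an unadjusted p below 0.05. Their values ran from -0.43 for Rfx5, a subunit of RFX (SE 0.54, adjusted p = 0.703, edgeR), to 1.77 for Nfya, a subunit of NF-Y (SE 0.92, adjusted p = 0.288, edgeR).

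Of 8 tested genes of the cell surface, Cd83, which limits the removal of class II molecules from the membrane, was higher in Jab1 mutants, at 36.1 ± 8.87 CPM (SD, n = 4) as compared with 5.46 ± 2.72 CPM (log2 fold change 2.84, SE 0.46, adjusted p = 0.00541, edgeR). March8, a ubiquitin ligase of the family that marks class II molecules for removal, was lower, at 52.4 ± 14.8 CPM as compared with 154.4 ± 69.7 CPM (log2 fold change -1.44, SE 0.37, adjusted p = 0.0384, edgeR), and it was called in 7 of 16 alternatives. Cd86, a costimulatory ligand for T cells, had a mean of 0.0961 CPM in WT and 6.61 CPM in Jab1 mutants, with no overlap and an adjusted p of 0.0635 in edgeR. It was called in 4 of 16 alternatives, DESeq2 and limma-voom among them. Of the other class II genes of the locus H2-Ob, a chain of H2-DO, which inhibits H2-DM, was tested and not called (2.29, SE 1.56, adjusted p = 0.434, edgeR).

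In double mutants as compared with WT, 0 of the 31 pathway genes were called by edgeR, 11 had an unadjusted p below 0.05, and DESeq2 called 9. The median log2 fold change was 1.01, and 0.27 without replicate 3. Ctss had a value of 5.70 (SE 1.30, adjusted p = 0.109, edgeR) and Cd86 one of 8.19 (SE 2.31, adjusted p = 0.191, edgeR). Without replicate 3 these log2 fold changes were 3.3 for Ctss and 6.24 for Cd86. Jak2 was again the lowest of the inducers and transducers (-1.17, SE 0.37, adjusted p = 0.225, edgeR), of which 7 were above 0 and 1 below with all samples. Between double mutants and Jab1 mutants, 0 of 31 were called by edgeR and by DESeq2, with 1 and 2 genes at an unadjusted p below 0.05. Ctss had a log2 fold change of 1.57 (SE 1.05, adjusted p = 0.996, edgeR), and of -0.80 without double-mutant replicate 3.

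Class I genes, which present peptides of a cell's own proteins and are found on most nucleated cells, served as a comparison. This list, too, was chosen with earlier results of these data known. Of 10 class I genes 8 were called as higher in Jab1 mutants than in WT, where 5.19% of all genes were. Their median log2 fold change was 2.27. B2m, the light chain of class I, rose from 148.0 ± 52.9 CPM in WT to 897.1 ± 408.2 CPM in Jab1 mutants (SD, n = 4 each, log2 fold change 2.72, SE 0.43, adjusted p = 0.00502, edgeR). H2-K1, a heavy chain, rose from 96.4 ± 19.7 to 370.2 ± 149.2 CPM (2.06, SE 0.37, adjusted p = 0.00821, edgeR). Nlrc5, the coactivator of class I and in that the counterpart of Ciita, was higher, with a log2 fold change of 3.07 (SE 0.82, adjusted p = 0.0447, edgeR), which was called in 8 of 16 alternatives. B2m and H2-K1 were at 1655 ± 1692 and 390.8 ± 295.7 CPM in double mutants (878.5 ± 824.9 and 277.2 ± 231.8 CPM without replicate 3), where 0 of the 10 genes were called against WT by edgeR and 9 had an unadjusted p below 0.05. Class I RNA was thus present in every WT sample, in contrast to Cd74, H2-Aa and H2-Ab1, each of which was at 3 counts or under in at least 2 of the 4.

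The 5 H2 genes described here lie within 197 kb of chromosome 17. In the stretch from 250 kb before to 250 kb after them, 24 of 32 other genes were tested. Of these, 5 were called as higher in Jab1 mutants than in WT and 0 as lower, where 5.19% of all genes were called as higher and 2.46% as lower. The 5 were the class I genes Tapbp, H2-K1, Psmb9 and Psmb8, and Notch4, a receptor of endothelial cells (log2 fold change 2.13, SE 0.50, adjusted p = 0.0282, edgeR). Notch4, Tapbp and Psmb9 were each called in 8 of 16 alternatives, H2-K1 in 15 and Psmb8 in 16. The median log2 fold change of the 24 genes was 0.44, with 14 above and 10 below 0. In double mutants 0 were called against WT or against Jab1 mutants in edgeR, with medians of 0.38 and 0.33. Psmb9 and Psmb8, inducible subunits of the proteasome, lie between H2-DMb1 and H2-Ab1, while Brd2, next to H2-DMa, had a log2 fold change of 0.57 (SE 0.26, adjusted p = 0.226, edgeR) in Jab1 mutants.

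**Figure D3:**
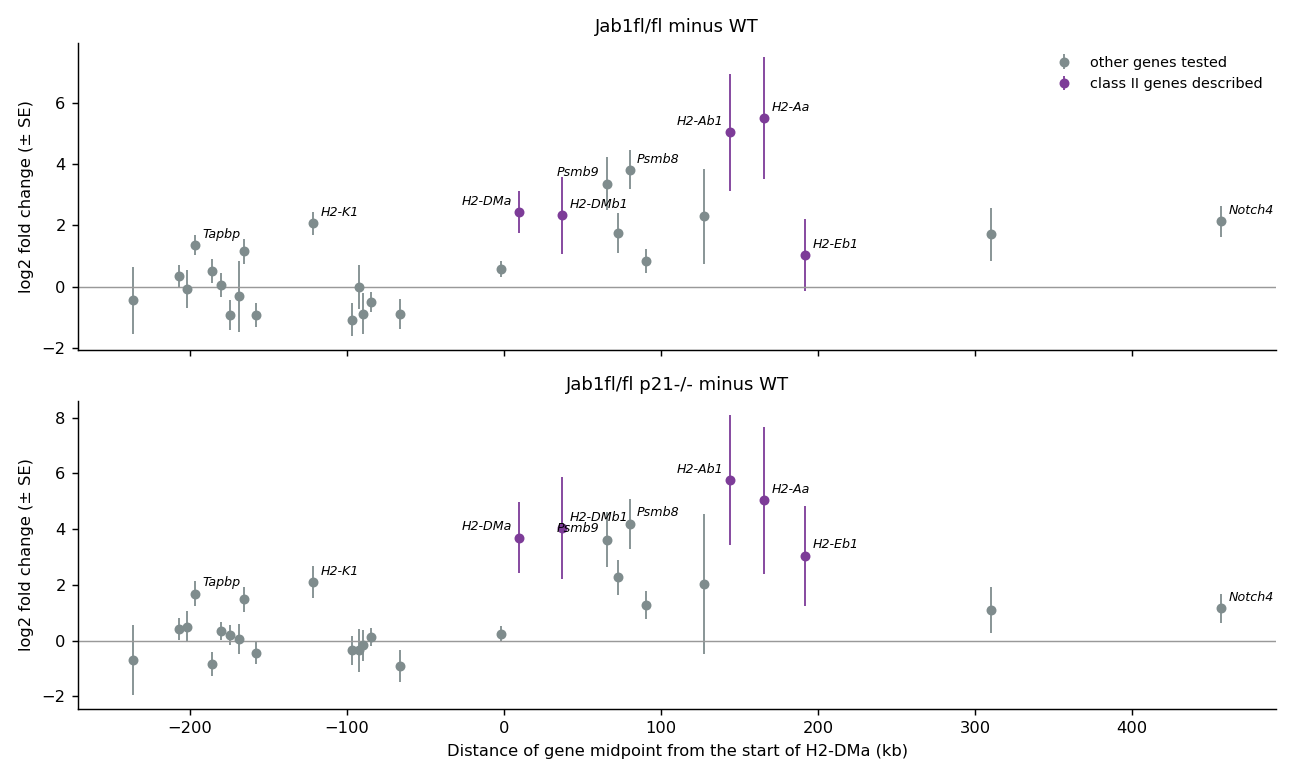
Log2 fold change with bars of 1 SE (y axis) of the genes tested around the class II genes of chromosome 17, by the distance of each gene's midpoint from the start of H2-DMa in kb (x axis), for Jab1 mutants against WT (top) and double mutants against WT (bottom). The 5 class II genes (purple) lie among class I genes with positive values such as Psmb8 and Psmb9, and genes to the left of H2-DMa lie on both sides of 0 in both comparisons.

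Markers of cells that are known to express class II genes differed between the genotypes, and did not all follow the class II levels sample by sample. The authors saw no overt contamination by CD45+ cells when sorted cells were reanalysed. They also reported that purity of the O1+ cells was not complete and that a small contamination by other cells could not be fully excluded. The cells had been gated as CD45-, and Ptprc, the gene of CD45, was at 0 to 1.57 CPM in WT, 31.7 to 100.2 CPM in Jab1 mutants and 3.21 to 97.9 CPM in double mutants (Jab1 mutants against WT, log2 fold change 7.16, SE 1.29, adjusted p = 0.00889, edgeR). Ptprc was highest in Jab1-mutant replicate 3, where the sum of the 6 class II genes without Ciita was the lowest of its group (22.9 CPM). It was at 10.6 CPM in double-mutant replicate 5, where that sum was 78.0 CPM. In double-mutant replicate 3, by contrast, Ptprc was high, at 97.9 CPM. That sample also had the highest sum of the 6 class II genes (393.5 CPM) and of the microglia markers. Over all genes, edgeR called 5.19% as higher in Jab1 mutants than in WT and 0.175% as higher in double mutants. Of 20 microglia markers, 18 were called as higher in Jab1 mutants than in WT and 0 in double mutants by edgeR, where 19 had an unadjusted p below 0.05. Their summed level was 162.7 to 376.6 CPM in WT, 1264 to 2935 CPM in Jab1 mutants and 473.5 to 20470 CPM in double mutants, with 20 of 20 detected in each genotype and C1qb, a complement gene, as the highest. In bulk samples, fewer cells of a type and less RNA per cell cannot be told apart.

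As a share of the microglia marker sum, the sum of the 6 genes without Ciita was 2.25 ± 0.843% (SD, n = 4) in WT, 2.05 ± 0.714% in Jab1 mutants and 2.28 ± 0.994% in double mutants, and it lay between 1.11% and 3.44% in all 12 samples. Double-mutant replicate 3, the highest sample of all 7 genes, was at 1.92%, and double-mutant replicate 1, the lowest of the mutants, was at 1.11%. The single genes did not keep their shares alike. Cd74 was at 0.026%, 0, 0 and 0 of the marker sum in WT, at 0.104% to 0.625% in Jab1 mutants and at 0.65% to 1.0% in double mutants. The ranges did not overlap, but those of Jab1 and double mutants nearly met, and the CPM levels of Cd74 overlapped between these genotypes. How many of all genes would separate the genotypes by such a share was not computed, and nothing is read from it. The mean share of H2-Ab1 was 0.101 ± 0.197% in WT, 0.485 ± 0.312% in Jab1 mutants and 0.388 ± 0.319% in double mutants (SD, n = 4 each). H2-DMa went the other way, with a mean of 1.25 ± 0.493% in WT, 0.625 ± 0.353% in Jab1 mutants and 0.587 ± 0.377% in double mutants, and so did H2-Eb1, at 0.351 ± 0.228%, 0.0628 ± 0.0509% and 0.0424 ± 0.0526%. The groups overlapped for these 3 genes. H2-Aa was at 0.0443 ± 0.0813%, 0.206 ± 0.146% and 0.0346 ± 0.04%, and H2-DMb1 at 0.491 ± 0.413%, 0.263 ± 0.143% and 0.382 ± 0.38%, in the same order. Ciita, which the sum leaves out, was at 1.43 ± 2.03%, 0.0235 ± 0.029% and 0.319 ± 0.531%. In 1 WT sample Ciita alone reached 4.39%, above the whole range of the sum of the 6 genes. The narrow range therefore holds for the 6 genes and not for all 7. These shares combine measures of the same samples by which the genes were chosen and are given without a test.

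**Figure D4:**
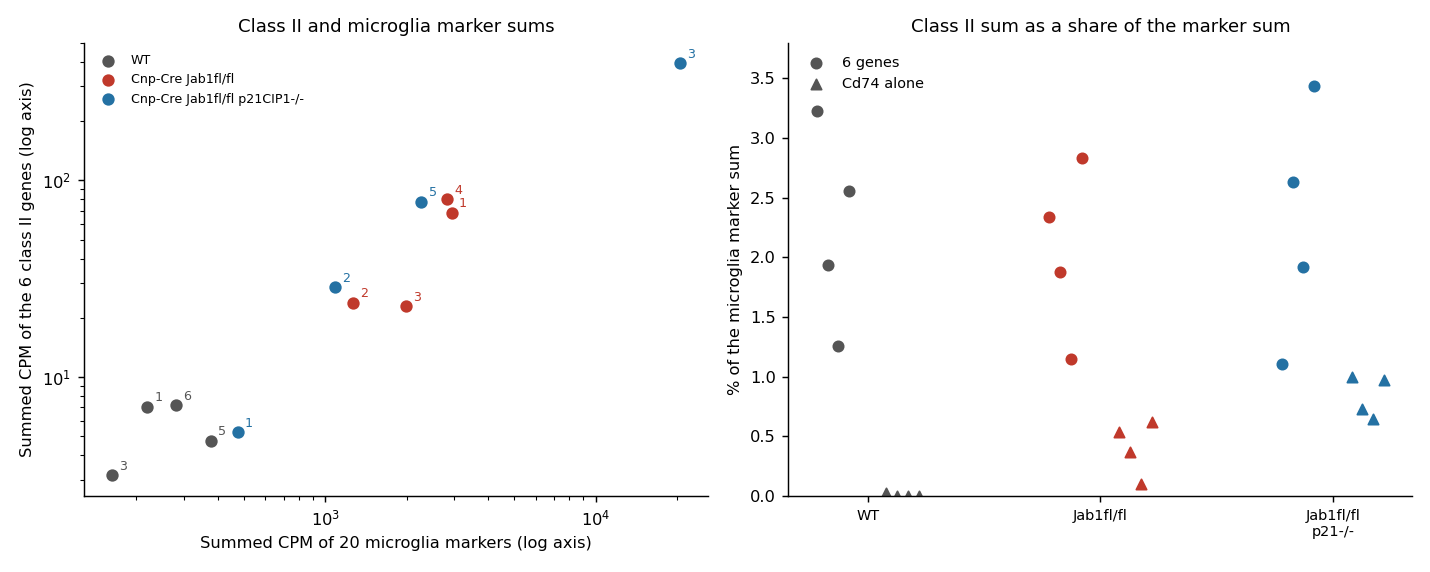
Left, the summed level of the 6 class II genes other than Ciita (y axis, CPM) against that of 20 microglia markers (x axis, CPM), both on log axes, with 1 point per sample, numbered by replicate and colored by genotype. Right, the sum of the 6 genes (circles) and Cd74 alone (triangles) as a percentage of the microglia marker sum in each sample: the circles span 1.11% to 3.44% across all genotypes, and the triangles lie near 0 in WT and highest in double mutants.

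Other cell types were followed through further lists. Over all genes, 5.19% were called as higher and 2.46% as lower in Jab1 mutants than in WT. Of 8 markers of activated microglia, 6 were called as higher in Jab1 mutants, and their sum was 42.2 to 158.0 CPM in WT, 162.9 to 359.6 CPM in Jab1 mutants and 48.3 to 1038 CPM in double mutants. Of 8 markers of border macrophages 5 were tested and 2 were higher, and the sums were 7.57 to 11.1 CPM in WT, 33.9 to 87.6 CPM in Jab1 mutants and 10.6 to 73.1 CPM in double mutants. All 8 were detected in double-mutant replicate 3, which had 2122 counts of Lyve1 and 1039 of F13a1. They were not all highest there. Cd163 was at 1.15 CPM in that sample and at 2.95 to 4.54 CPM in WT. Stab1, the highest gene of the list, was at 16.6 CPM in it and at 22.6 to 74.8 CPM in Jab1 mutants. The highest B cell gene of 8 was Cd22, which microglia also express. The sums of that list were 0.0135 to 2.30 CPM in WT, 3.63 to 11.7 CPM in Jab1 mutants and 0.130 to 56.8 CPM in double mutants, with Blk at 0 in all 12 samples and Ms4a1 at no more than 6 counts in any sample. The 6 dendritic cell markers, led by Zbtb46, summed to 6.80 to 25.5 CPM in WT, 9.35 to 32.3 CPM in Jab1 mutants and 3.58 to 16.6 CPM in double mutants, and the 1 that was tested was not called in Jab1 mutants.

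Markers of endothelial cells, led by Ly6c1, were also higher in Jab1 mutants (5 of 7 called), with sums of 298.8 to 674.8 CPM in WT, 696.7 to 4642 CPM in Jab1 mutants and 576.7 to 4425 CPM in double mutants. Oligodendrocyte markers were lower (7 of 10 called), where over all genes 5.19% were called as higher and 2.46% as lower. For T cells, 1 of 7 markers was tested and 0 were called, with Lck the highest and sums of 0.0444 to 0.589 CPM in WT, 0.191 to 17.9 CPM in Jab1 mutants and 1.47 to 7.81 CPM in double mutants. For monocytes and neutrophils 1 of 8 was tested and 0 were called, with Ly6c2 the highest, Chil3 at 0 in all 12 samples, and sums of 0.663 to 2.22, 1.98 to 16.7 and 2.36 to 136.2 CPM. Of 6 astrocyte markers, led by Aldoc, 0 were called by edgeR and 2 had an unadjusted p below 0.05, with sums of 3848 to 7744, 2093 to 5541 and 2633 to 7075 CPM. The part of microglia, border macrophages, endothelial cells and the other cell types in the class II levels was not tested.

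Among the genes whose log2(CPM + 1) over the 12 samples was most like the mean of the 7 genes, each scaled to its own mean and SD, were Ctsd, Ctsz and Tnfaip8l2 (Pearson's r of 0.96 each) and Ctsc (0.94). After the mean of each genotype had been removed, they were Ifi27l2a, Bcl2a1b and Cyp4v3 (0.97 each) and Rgs10 and Ctsz (0.96 each). Without double-mutant replicate 3 the values were 0.88 to 0.92 for the first set of genes, and 0.87 to 0.91 for the second set with the exception of Cyp4v3, at 0.03. These values describe 12 samples that share 3 genotypes and 1 high sample. Of the 7 genes themselves, H2-DMa (0.92) and Cd74 (0.90) lay closest to the common pattern, while Ciita lay farthest from it (0.30, and -0.29 without double-mutant replicate 3) and H2-Eb1 depended on the high sample (0.77, and 0.29 without it).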

How the data were processed

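RNA of O1+ CD45- cells was amplified by the authors with a SMART-Seq v4 kit and sequenced as paired ends. Reads were trimmed with Trimmomatic, version 0.32, aligned to GRCm38 with STAR, version 2.5.3a, and assigned to genes of the GENCODE basic annotation with featureCounts. The deposited table holds whole-number counts of reads for each symbol, which were not normalized. Use of strand and of reads with several matches is not given in the sources used here.

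From the counts, CPM values were computed with TMM factors over 12 samples. The filter on low counts used plain library totals without these factors. The 17716 genes that reached 1 CPM on that scale in 4 samples or more entered the quasi-likelihood test of edgeR, version 4.0.16, in R, version 4.3.3, on the 8 samples of each comparison, with Benjamini-Hochberg adjustment over all genes and a threshold of 0.05. Alternatives were DESeq2 1.42.0, limma-voom with sample weights (limma 3.58.1), other size factors, no filter, a stricter filter (mean of 10 CPM or more), 1 fit of all 12 samples, the replicate number as a block, and each sample left out. Levels were also computed with DESeq2 size factors and plain library totals. Positions and exon lengths are from GENCODE M21, where 54402 of 55376 symbols matched 1 gene, and promoter windows from RefSeq. On simulated counts of Jab1 mutants and WT with 200 of 17716 genes changed by 3 on the log2 scale, edgeR recovered 66% with 3.6% false calls, limma-voom 61% with 0.8%, and DESeq2 81.5% with 32.9%. These counts were drawn in a single run with the dispersions that edgeR estimated. The share of false calls also depends on how many genes change, so these values need not hold for the data.

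The members and lists were chosen with earlier results of these data known. Named are the 7 genes, pathway genes called in a comparison or with the highest or lowest log2 fold change of a role group, 5 genes each by correlation with and without genotype means, the highest gene of each marker list and genes at 0 throughout, the class I list, and called neighbors on chromosome 17. Cd86, Ifng, Brd2, H2-Ea-ps, H2-DMb2, Lyve1, F13a1 and Ms4a1 were added after their values were seen, where not named by this rule. Labels give each sample as a separate pool of 2 brains, and the lowest chi-square per degree of freedom between samples of a genotype was 209.9, so none repeats another. All 12 columns were used. Some genes that this rule would name are not reported here.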

Additional observations from a re-analysis of the deposited data

Results flagged for a closer look

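In groups of 4, the highest or lowest sample of each of the 7 genes was set against the rest, and 7 of 21 groups had a gap to the nearest sample above Dixon's 95% limit, as a part of the range, where chance flags about 1 in 20 if values are normally distributed. That rate does not hold for the 3 WT groups below, which are near 0 but for 1 sample, and the genes were chosen on these values, so the flags are a description. The 7 genes share samples, so these groups are not independent. Double-mutant replicate 3 was the high sample for 4 of the genes, with Cd74 at 133.1 CPM, H2-Aa at 14.28 CPM, H2-Eb1 at 23.66 CPM and H2-DMa at 122.7 CPM. In WT a single sample carried nearly all counts of 3 genes, and it was a different sample for each. Cd74 was at 0.05673 CPM in replicate 1, H2-Aa at 0.4666 CPM in replicate 6 and H2-Ab1 at 1.494 CPM in replicate 5.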

How the results depend on the processing

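The number of the 7 genes called in Jab1 mutants against WT was 1, and it was 2 at a mean of at least 10 CPM (with 3 of the 7 tested), 3 in DESeq2, 3 with a replicate block, and 1 to 2 with each sample left out. Against WT the double mutants had 1 gene called, 2 in DESeq2, 0 in limma-voom, 0 with a replicate block, and 0 to 2 with each sample left out. Of the 31 pathway genes 5 were called in Jab1 mutants, 2 with no filter, 10 in DESeq2, 2 in the fit of all 12 samples, 2 with a replicate block and 2 to 5 with a sample left out. In double mutants this number was 0, then 2 at a mean of at least 10 CPM, 9 in DESeq2, 2 in the fit of all 12 samples and 0 to 2 with a sample left out. Over all genes, 1354 were called in Jab1 mutants, 2689 in DESeq2, 660 with a replicate block and 678 to 1865 with a sample left out. Double mutants had 34, with 21 under no filter, 140 at a mean of at least 10 CPM, 862 in DESeq2, 164 in the fit of all 12 samples, 1 with a replicate block and 1 to 274 with a sample left out. Against Jab1 mutants they had 0, with 5 at a mean of at least 10 CPM, 87 in DESeq2, 1 in limma-voom and 0 to 2 with a sample left out. The replicate numbers did not pair the samples: over 8 pairs of the same number, the correlation of deviations from the genotype means was -0.189 to 0.084, with 0 above 0.1. The fit with a replicate block takes the genotype difference only from numbers that occur in both genotypes. For Jab1 mutants against WT these were replicates 1 and 3, so its calls and signs rest on few samples and nothing is read from them.

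H2-Ob in double mutants against WT (2.04) was -1.93 in limma-voom, -3.21 with the replicate block and -8.83 without replicate 3 of the double mutants, with 2.63 as the highest value when 1 sample was left out. Between double and Jab1 mutants Ctss (1.57) was -0.80 to 1.97 with 1 sample left out, the lowest without that replicate, and Cd86 (2.07) was -0.56 in limma-voom and -0.91 with the block. For the 7 genes, the sign of the log2 fold change turned in 1 of 108 alternative values for Jab1 mutants against WT (H2-Eb1), 4 of 108 for double mutants against WT (Ciita and H2-Eb1) and 11 of 108 for double against Jab1 mutants (H2-Aa, H2-Ab1, H2-Eb1, H2-DMa and H2-DMb1). The cause was not tested. The 42 alternative levels were within 1 SD of those given. With at least 61485556 counts in each sample, the counting error of the reads is smaller than the spread between samples, except for counts near 0. The reads carry no molecular identifiers, so how many molecules were sampled is not known.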
